A study of Macaca mulatta with 11 samples.

Results

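Aldo-keto reductase AKR1B10 and 9 other enzymes that detoxify aldehydes, quinones, haem and peroxides were followed in cultured mesenchymal stem cells from the bone marrow of rhesus monkeys of different ages. The set holds AKR1B10, AKR1B1, AKR1C1, AKR1C2, AKR1C3, NQO1, HMOX1, GCLM, GCLC and TXNRD1. Its members were found by name, as the probe sets to which the array's annotation gives any of these symbols. Of the 10 genes 9 had a probe set, 15 probe sets in all, out of 22215 probe sets and 11959 genes named singly on the array. AKR1B1 was named by no probe set in the annotation used here and was not analysed here. AKR1B10 was chosen by its higher level in fetal and infant than in adult arrays of this same series. Its own values are therefore given as a description without a test. The others were chosen by what is known of them, but with earlier results of these data known. The question was whether the other 8 genes move with AKR1B10.

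NRF2, the product of NFE2L2, is a transcription factor of the response to oxidants and electrophiles. In unstressed cells the adaptor KEAP1 holds it for destruction by a CUL3 ubiquitin ligase. When reactive compounds modify KEAP1, NRF2 accumulates, pairs with small MAF proteins and switches on genes that carry antioxidant response elements, whereas BACH1 competes for the same elements and represses them. NQO1, HMOX1, GCLM, GCLC and TXNRD1 are classical targets, and AKR1B10 and the AKR1C genes are among the strongest targets known in human cells. AKR1B10 reduces retinal and reactive aldehydes. In human tissue it is best known from the lining of the gut and from tumours of lung and liver.

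The fetal group held 4 arrays, the infant group 4 and the adult group 3, with 1 array for each of 11 cultures of Macaca mulatta cells. Donors of fetal arrays 1 and 2 were at gestation day 120, and those of fetal arrays 3 and 4, which also carry the fetal title, were newborn. The infant donors of arrays 1 to 4 were aged 6, 6, 3 and 5 months, and the adult donors of arrays 1 to 3 were aged 7, 7 and 8 years. No treatment is named for any culture, and all were grown in the same serum-containing medium and were collected at the second passage. Marrow of fetal and newborn donors was flushed from long bones and marrow of infant and adult donors was aspirated, so that this way of collecting and membership of the fetal group cannot be told apart. Whether arrays of 1 age stem from separate animals is not said in the labels, and p-values measure only the spread between these cultures. Values are log2 of deposited intensities. The probes are annotated with human genes, so a level also depends on how well the monkey transcript matches them, and levels of different probe sets were not set against each other. Fewer cells that express a gene and less RNA per cell cannot be told apart in such arrays.

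Array medians lay between 164.9 and 169.6 intensity units, and correlations between arrays lay between 0.928 and 0.983. Of 9 surface markers of mesenchymal stem cells, 8 read above the median of all log2 values, 7.38, and NT5E did not. Adult arrays stood apart from each other. The summed intensity of 8 markers of antibody-producing cells was 1693 to 1745 in fetal arrays, 1542 to 1832 in infant arrays and 9210, 11896 and 2004 in adult arrays 1 to 3. Adult array 3 read 11.23 for XIST, the RNA of the inactive X chromosome, against 7.27 to 8.40 in the other arrays. For RPS4Y1, a gene of the Y chromosome, it read 7.81 against 11.30 to 12.16 in the others. By both genes adult array 3 alone read as female, and the labels do not give the sex of the donors. Differences from adults are given with and without them for AKR1B10, AKR1C1, AKR1C2, AKR1C3, HMOX1 and TXNRD1. Those of genes outside the set are given with all adult arrays only.

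AKR1B10 was the member with the widest range over the arrays. Its log2 intensity (206561_s_at) was 11.12, 11.57, 11.30 and 10.97 in fetal arrays 1 to 4, 10.67, 10.83, 11.17 and 11.37 in infant arrays 1 to 4, and 9.58, 9.99 and 9.13 in adult arrays 1 to 3. Every fetal and infant array lay above every adult array, and fetal and infant arrays overlapped. Fetal arrays averaged 11.24 ± 0.26 (SD, n = 4), infant arrays 11.01 ± 0.32 (SD, n = 4) and adult arrays 9.57 ± 0.43 (SD, n = 3). The fetal and infant means lay 1.67 and 1.44 above the adult mean, ratios of geometric mean intensity of 3.19 and 2.72. The fetal and infant means, neighbours in that order, differed by 0.23, less than the SD of either group.

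Markers of epithelial cells, which express AKR1B10 in the human gut, were read beside it. The summed intensity of 9 such markers was 2020 to 3099 in fetal, 1586 to 2204 in infant and 1600 to 1809 in adult arrays. In this sum fetal and adult arrays did not overlap, whereas infant and adult arrays did. Marker by marker, 3 read higher and 6 lower in fetal than in adult arrays, with a median of -0.02 against 0.00 for all genes. Against adults 4 read higher and 5 lower in infant arrays. KRT18, a keratin of simple epithelia, averaged 10.03 ± 0.56 in fetal, 8.96 ± 1.06 in infant and 8.34 ± 0.28 in adult arrays (SD, n = 4, 4 and 3), a fetal-minus-adult difference of 1.69 (limma adjusted p = 0.194). KRT18 alone set the fetal above the adult arrays in the sum. CLDN4, the lowest marker in this comparison, differed by -0.28 (limma adjusted p = 0.405), with all fetal arrays below the adult arrays. EPCAM, CDH1, KRT14 and KRT19 had means below the median of all values. The part of such cells in the AKR1B10 level was not tested.

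Within the fetal group, the newborn arrays averaged 11.14 and the gestation day 120 arrays 11.35, and the members of both pairs overlapped. Within the infant group the youngest donor, at 3 months, read 11.17, and the donors aged 6 months read lowest, with 1 donor at 5 months reading 11.37. Adult array 3, from the oldest donor, was lowest of all. Without it the differences from adults were 1.45 for fetal and 1.22 for infant arrays. Without adult arrays 1 and 2 they were 2.11 and 1.88. The suffix of this probe set marks probes that can match more than 1 transcript, and in the human genome AKR1B15 is a close copy of AKR1B10, so that a share of the signal from such a copy cannot be told apart.

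**Figure D1:**
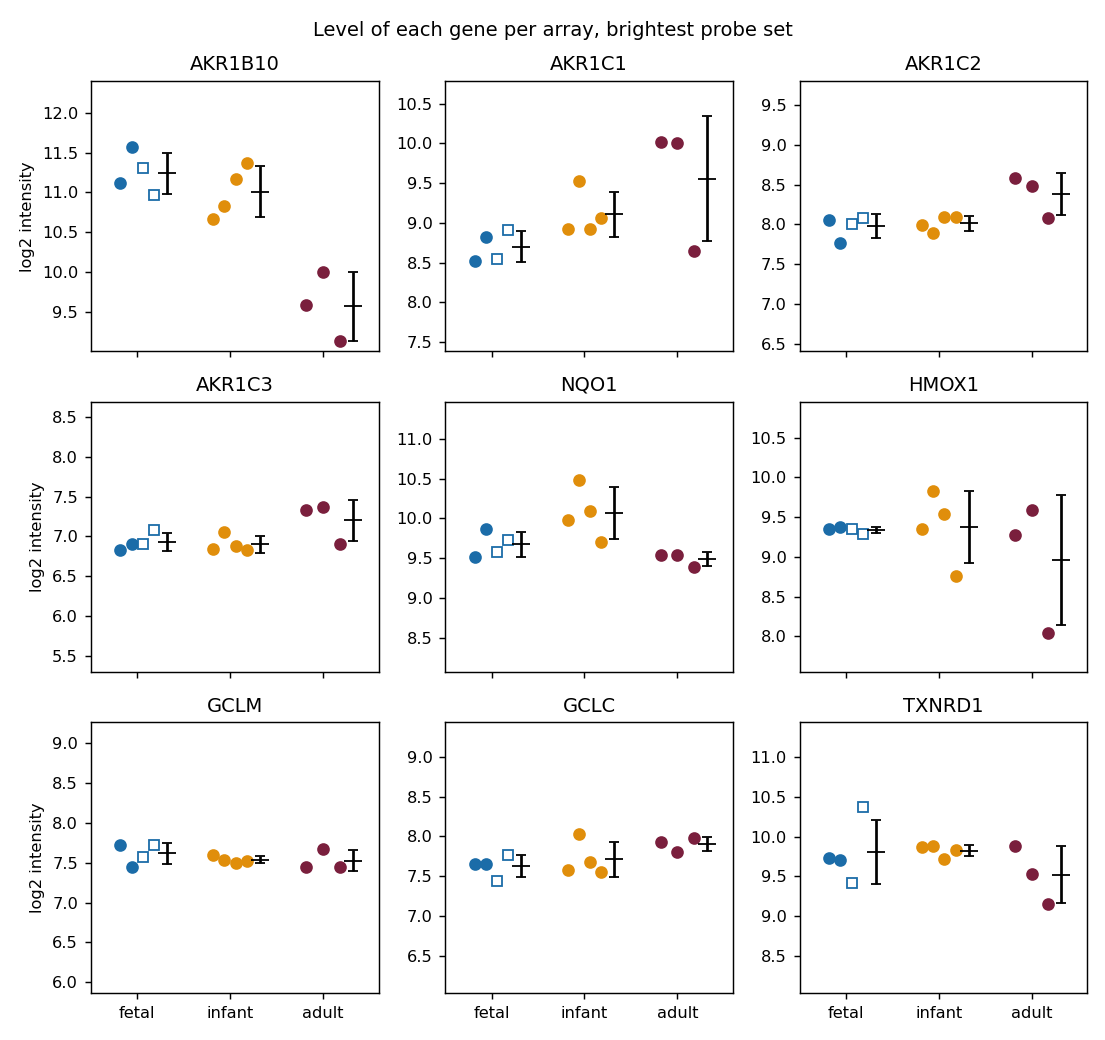
Log2 intensity of the brightest probe set of each of the 9 measured genes, 1 point per array, for fetal arrays (filled circles for gestation day 120, open squares for newborn), infant arrays and adult arrays, with the mean and SD of each group as bars. Each panel spans the same log2 range. AKR1B10 separates all fetal and infant arrays from the adult arrays, from 10.67 upward against 9.99 and below.

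None of the 14 probe sets of the other 8 genes passed limma's test at an adjusted p under 0.05 over all probe sets, in fetal against adult arrays, where 0.131% of all probe sets passed, or in infant against adult arrays, where 0.0180% passed. None passed in fetal against infant arrays, where 0% of all probe sets did so and 1527 had an unadjusted p under 0.05. The smallest limma adjusted p among the 14 was 0.304, 0.465 and 0.621 in these comparisons. An F test over the 3 ages called 0.0360% of all probe sets and none of the 14. In fetal against adult arrays 7 of the 14 had an unadjusted p under 0.05, as had 8.96% of all probe sets. Of these 1 was higher and 6 were lower in fetal arrays, against 4.83% higher and 4.12% lower of all probe sets. In infant against adult arrays 4 of the 14 reached it, 2 higher and 2 lower, against 6.19% of all probe sets, 2.39% higher and 3.79% lower. In fetal against infant arrays 1 reached it, lower in fetal, against 6.87% of all, 4.55% higher and 2.33% lower. Of the 6 probe sets lower in fetal arrays 5 were of AKR1C genes, whose sequences are alike, so that they are not separate observations.

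The median difference of the 14 probe sets was -0.02 between fetal and adult arrays and -0.07 between infant and adult arrays, against -0.01 for all probe sets in both. The 95% intervals of the 14 reached no higher than 1.01 between fetal and adult arrays, for HMOX1, and 1.31 between infant and adult arrays, for NQO1 (210519_s_at). They leave room for shifts up to those bounds.

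**Figure D2:**
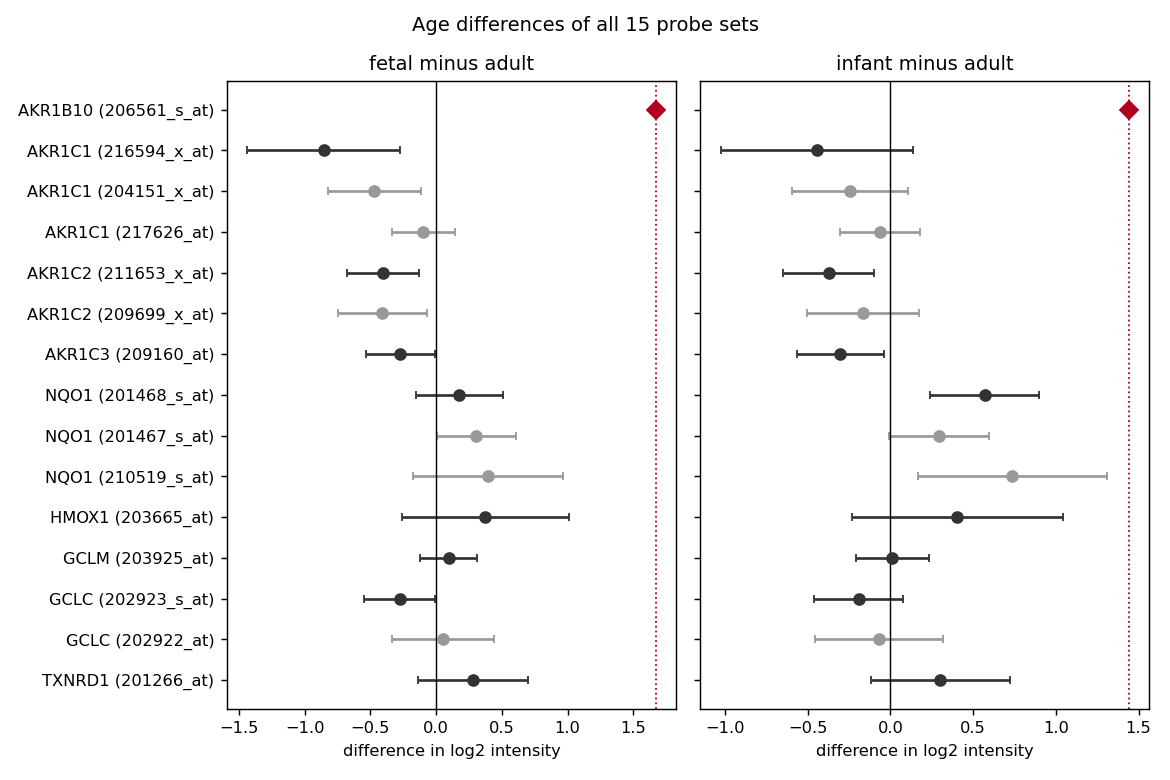
Difference in log2 intensity, fetal minus adult and infant minus adult, of all 15 probe sets of the set, with 95% intervals for the 14 tested ones. The brightest probe set of each gene is dark and others are grey, and AKR1B10, shown as a diamond without an interval, marks the dotted line, the value for which it was chosen. The 14 intervals end at 1.01 or less between fetal and adult and at 1.31 or less between infant and adult arrays.

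The AKR1C genes encode ketosteroid reductases. AKR1C1 inactivates progesterone, AKR1C2 inactivates dihydrotestosterone, and AKR1C3 makes testosterone and prostaglandin F from their precursors. In the RefSeq annotation of the macaque assembly T2T-MMU8v2.0, AKR1C1 and AKR1C2 are neighbouring protein-coding genes. The human members are highly similar in sequence, and several of these probe sets carry suffixes for shared probes, so a split of signal between the genes is uncertain.

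AKR1C1 (216594_x_at) read 8.52, 8.83, 8.54 and 8.91 in fetal, 8.93, 9.52, 8.93 and 9.06 in infant, and 10.02, 10.00 and 8.65 in adult arrays. Adult arrays 1 and 2 were the highest of all 11, and adult array 3 lay among the fetal arrays. Fetal arrays all lay below infant arrays, by a mean of -0.41 (limma adjusted p = 0.803, not past the threshold). The fetal-minus-adult difference was -0.86 (SE 0.27, limma adjusted p = 0.305) and the infant-minus-adult difference -0.45 (SE 0.27, limma adjusted p = 0.843), both opposite in sign to AKR1B10. Without adult array 3 they were -1.31 (limma adjusted p = 0.00177) and -0.90 (limma adjusted p = 0.0494), and AKR1C1 was then called lower in fetal and in infant arrays. Without adult arrays 1 and 2 they were 0.05 and 0.46 (limma adjusted p = 1.00 and 0.549), with the sign turned, and the single adult array left was assumed to vary like the others.

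AKR1C2 (211653_x_at) read 8.06, 7.76, 8.01 and 8.08 in fetal, 7.99, 7.89, 8.09 and 8.09 in infant, and 8.58, 8.49 and 8.08 in adult arrays. Again adult arrays 1 and 2 stood above every other array and adult array 3 did not. Its differences from adults were -0.41 (SE 0.13, limma adjusted p = 0.304) for fetal and -0.37 (SE 0.13, limma adjusted p = 0.651) for infant arrays. Without adult array 3 they were -0.56 (limma adjusted p = 0.0558) and -0.52 (limma adjusted p = 0.157), and without adult arrays 1 and 2 they were -0.11 and -0.07.

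AKR1C3 (209160_at), whose mean lay below the median of all values, read 6.83, 6.91, 6.91 and 7.08 in fetal, 6.84, 7.05, 6.88 and 6.83 in infant, and 7.33, 7.37 and 6.91 in adult arrays. The same 2 adult arrays were highest. The differences were -0.27 (limma adjusted p = 0.534) for fetal and -0.30 (limma adjusted p = 0.757) for infant arrays. Without adult array 3 they were -0.42 (limma adjusted p = 0.130) and -0.45 (limma adjusted p = 0.221), and without adult arrays 1 and 2 they were 0.02 and -0.01. The dim AKR1C3 reading limits what could be seen.

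The other probe sets of these genes varied. For AKR1C1, 204151_x_at read 8.36 to 8.70 in fetal, 8.60 to 8.86 in infant and 8.57 to 9.40 in adult arrays. The dim 217626_at read 6.98 to 7.32, 7.02 to 7.26 and 7.14 to 7.35 in the same order of ages. For AKR1C2, 209699_x_at read 7.36 to 8.07, 7.70 to 8.14 and 7.91 to 8.23. Of the 6 AKR1C probe sets, 5 were highest in adult array 1 or 2, and 4 had both of these arrays above every other, as did 3.36% of all probe sets. The same arrays were highest in the summed markers of antibody-producing cells. Most of that sum was IGLC1, a lambda light chain gene, at no more than 8.30 in fetal and infant arrays and at 12.82, 13.23 and 9.10 in adult arrays 1 to 3. Without IGLC1 the other 7 summed to 1417 to 1514 in fetal, 1227 to 1519 in infant and 1993, 2279 and 1455 in adult arrays 1 to 3. Of all 8 markers 2 read higher and 6 lower in fetal, and 3 higher and 5 lower in infant than in adult arrays, and JCHAIN and MS4A1 had means below the median of all values. The summed intensity of 12 macrophage and leukocyte markers was also highest in adult arrays 1 and 2, at 2226 to 2496 in fetal, 2167 to 2526 in infant and 2616, 2935 and 2308 in adult arrays 1 to 3, with CD14, ITGAM, TYROBP and LYZ below the median. Of these 12 markers 5 read higher and 7 lower in fetal, and 1 higher and 11 lower in infant than in adult arrays. The part of either cell type in the AKR1C readings was not tested.

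**Figure D3:**
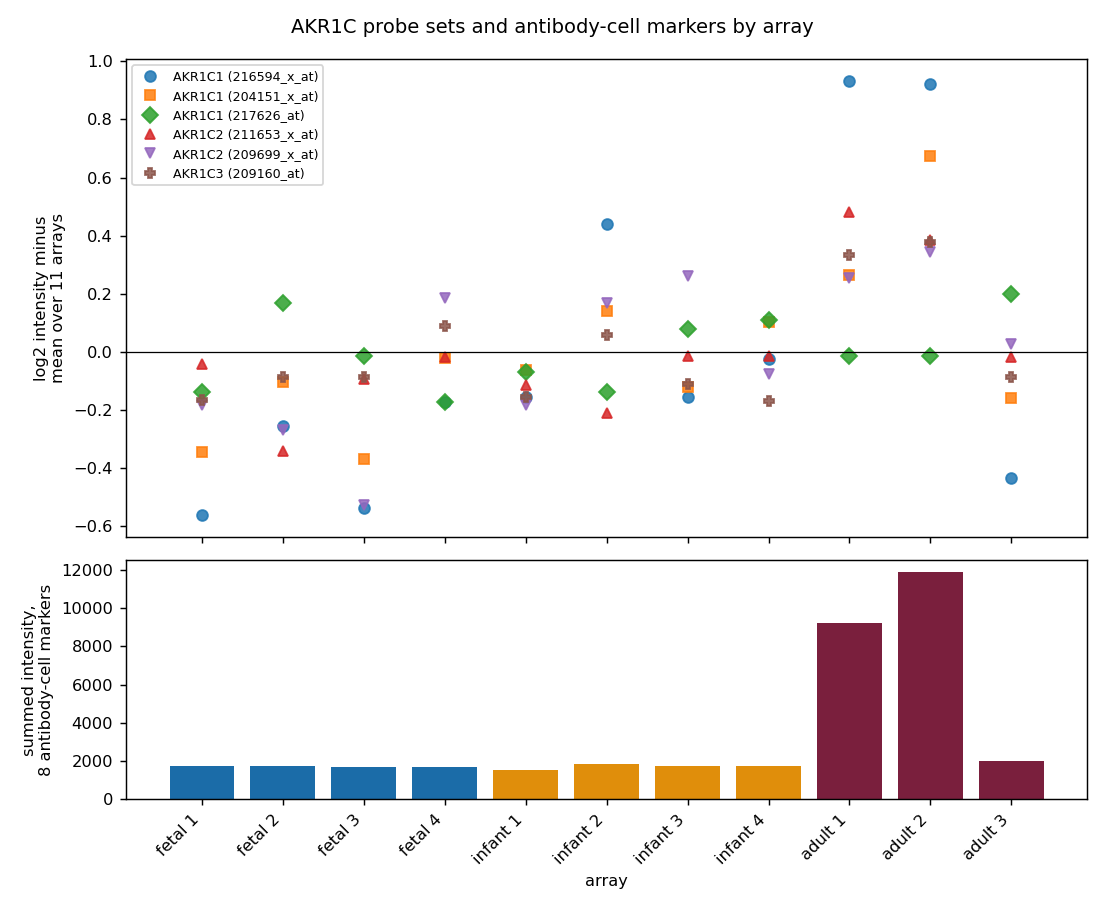
Upper panel, log2 intensity of the 6 AKR1C probe sets in each of the 11 arrays, each minus its mean over all arrays. Lower panel, the summed linear intensity of 8 markers of antibody-producing cells in the same arrays. Adult arrays 1 and 2 are highest in the lower panel, at 9210 and 11896, and above every other array for 4 of the 6 probe sets in the upper panel.

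NQO1, which reduces quinones to hydroquinones, is the usual index gene of NRF2 activity. Its brightest probe set (201468_s_at) read 9.52, 9.86, 9.58 and 9.72 in fetal, 9.97, 10.49, 10.10 and 9.70 in infant, and 9.54, 9.55 and 9.39 in adult arrays. Infant arrays lay above all adult arrays, whereas fetal arrays overlapped them. The infant-minus-adult difference was 0.57 (SE 0.15, limma adjusted p = 0.465), the fetal-minus-adult difference 0.18 (SE 0.15, limma adjusted p = 0.797), and the fetal-minus-infant difference -0.39 (SE 0.14, limma adjusted p = 0.621). The order of this probe set's group means, infant above fetal above adult, differed from that of AKR1B10, where fetal stood above infant. In both, fetal and infant arrays overlapped.

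The other NQO1 probe sets gave a similar sign against adults. For 201467_s_at the arrays read 8.78, 8.75, 8.53 and 8.53 in fetal, 8.67, 8.54, 8.99 and 8.34 in infant, and 8.38, 8.20 and 8.45 in adult arrays. Fetal arrays lay above adult arrays without overlap, by 0.31 (limma adjusted p = 0.545). The group means of this probe set were 8.65 in fetal, 8.63 in infant and 8.34 in adult arrays, the same order as for AKR1B10. For 210519_s_at they read 8.04, 8.34, 8.49 and 8.14 in fetal, 8.83, 9.42, 8.09 and 8.03 in infant, and 8.05, 7.61 and 7.92 in adult arrays. Infant arrays 1 and 2 were the high ones here, and these had the lowest AKR1B10 of the infant arrays. Non-overlapping groups were seen for 2 of the 14 probe sets between fetal and adult arrays, 201467_s_at of NQO1 and 202923_s_at of GCLC, against 8.08% of all probe sets. They were seen for 1 between infant and adult arrays against 4.98%, and for 1 between fetal and infant arrays against 3.34%.

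HMOX1 encodes haem oxygenase, which opens the haem ring, and is under BACH1 repression as well as NRF2 control. It read 9.35, 9.38, 9.35 and 9.29 in fetal, 9.35, 9.83, 9.54 and 8.76 in infant, and 9.27, 9.59 and 8.04 in adult arrays. The fetal arrays were nearly level, with an SD of 0.04, and adult array 3 alone was far below the rest. The differences from adults were 0.38 (SE 0.30, limma adjusted p = 0.772) for fetal and 0.40 (SE 0.30, limma adjusted p = 0.871) for infant arrays. Without adult array 3 they were -0.09 and -0.06, so that the sign of AKR1B10 was not kept. Without adult arrays 1 and 2 they were 1.30 and 1.33 (limma adjusted p = 0.101 and 0.0988).

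TXNRD1, the thioredoxin reductase that keeps thioredoxin reduced, read 9.73, 9.70, 9.42 and 10.37 in fetal, 9.87, 9.87, 9.72 and 9.83 in infant, and 9.88, 9.53 and 9.15 in adult arrays. All 3 groups overlapped, and fetal array 4 and adult array 3 were the extremes. The differences from adults were 0.28 (SE 0.20, limma adjusted p = 0.737) for fetal and 0.30 (SE 0.20, limma adjusted p = 0.854) for infant arrays. Without adult array 3 they were 0.10 and 0.12, without adult array 1 they were 0.46 and 0.48, and without adult arrays 1 and 2 they were 0.65 and 0.67. Without fetal array 4 the fetal difference was 0.09. None of these passed the test.

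GCLC and GCLM are the catalytic and the modifier subunit of glutamate-cysteine ligase, which makes the precursor of glutathione. GCLM read 7.72, 7.45, 7.57 and 7.73 in fetal, 7.60, 7.53, 7.50 and 7.52 in infant, and 7.45, 7.68 and 7.45 in adult arrays. All of its readings lay within a range of 0.28, the narrowest of any member, and its differences from adults were 0.09 (limma adjusted p = 0.850) for fetal and 0.01 (limma adjusted p = 0.995) for infant arrays. GCLC (202923_s_at) read 7.65, 7.65, 7.43 and 7.76 in fetal, 7.58, 8.03, 7.67 and 7.56 in infant, and 7.93, 7.80 and 7.97 in adult arrays. Fetal arrays lay below adult arrays, opposite to AKR1B10, by a difference of -0.28 (SE 0.13, limma adjusted p = 0.534). The second, dimmer GCLC probe set (202922_at) gave 0.05, so that the probe sets disagreed in sign.

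By its brightest probe set each, 4 of the 8 genes read higher and 4 lower in fetal than in adult arrays, with a median of -0.09 against 0.00 for all genes. The split was also 4 to 4 between infant and adult arrays, with a median of -0.09 against -0.02. All 3 AKR1C genes were on the lower side in both comparisons, with medians of -0.41 and -0.37. Of the 5 genes outside the AKR family, 4 were on the higher side in both, with medians of 0.18 and 0.30, and GCLC was on the lower. Adult array 3 was the lowest of all 11 arrays for 4 of the 9 measured members, AKR1B10, NQO1, HMOX1 and TXNRD1, as it was for 10.4% of all probe sets. Between newborn and gestation day 120 arrays, with 2 arrays each, none of the 14 passed the test, as 0% of all probe sets passed. At an unadjusted p under 0.05 that limma fit had 402 probe sets, 1.81% of all and none of the 14.

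Whether the genes moved with AKR1B10 among arrays of the same age was read from the slope of each probe set on the AKR1B10 level, with a mean for each age group. A slope of 1 would mean equal steps on the log2 scale. The 14 slopes ran from -0.62 to 0.61, 7 positive and 7 negative. None passed limma's test, as 0% of all probe sets passed, and none of the 14 had an unadjusted p under 0.05, against 5.10% of all. The smallest limma adjusted p among them was 0.929. The 95% interval ended below 1 for 12 of the 14 and reached 1 for AKR1C1 (216594_x_at) and HMOX1. Both of these slopes rested on adult array 3. Without it the slope of AKR1C1 was -0.11, against 0.61 with it, and that of HMOX1 was -0.31, against 0.50 with it.

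Over the 8 fetal and infant arrays alone, where AKR1B10 did not fall into separate groups, 12 of the 14 slopes were negative. They ran from -0.94 to 0.33, with a median of -0.21 against 0.006 for all probe sets, and all 14 intervals ended below 1. The 14 share the same AKR1B10 readings, and several are probe sets of the same or similar genes. Their signs are thus not separate observations. None passed limma's test, the smallest adjusted p being 0.551, and 0.00450% of all probe sets passed. NQO1 (210519_s_at) alone had an unadjusted p under 0.05, with a slope of -0.94 (SE 0.42), against 8.98% of all probe sets. On these arrays no member was seen to step up with AKR1B10 by an equal amount.

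Correlations were also taken. Over these 8 arrays, Pearson's r between AKR1B10 and the brightest probe set of each of the 8 genes lay between -0.45 (TXNRD1) and -0.23 (AKR1C2), all 8 below 0, and the smallest two-sided exact permutation p was 0.256. These 8 values share the same AKR1B10 readings, so their signs are not separate observations. Spearman's rho lay between -0.71 (TXNRD1, exact permutation p = 0.0576) and 0.14 (AKR1C2). Without infant array 1 and fetal array 2, which lay farthest from the median AKR1B10 level, r lay between -0.93 (GCLC) and 0.58 (AKR1C2). The 14 probe sets gave 14 such relations for each measure, and the highest was the dim AKR1C1 probe set 217626_at, with r of 0.76 and rho of 0.76 (exact permutation p = 0.0306 and 0.0368), unadjusted for their number. Its slope of 0.33 (SE 0.16) did not pass the test over all probe sets. Over all 11 arrays, where the age difference enters, r of the brightest probe sets was 0.46 for HMOX1, 0.42 for NQO1, 0.38 for TXNRD1 and 0.22 for GCLM. It was -0.69 for GCLC, -0.64 for AKR1C2, -0.54 for AKR1C3 and -0.44 for AKR1C1. The highest r of the 14 probe sets over all arrays was 0.51, for NQO1 (201467_s_at).

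**Figure D4:**
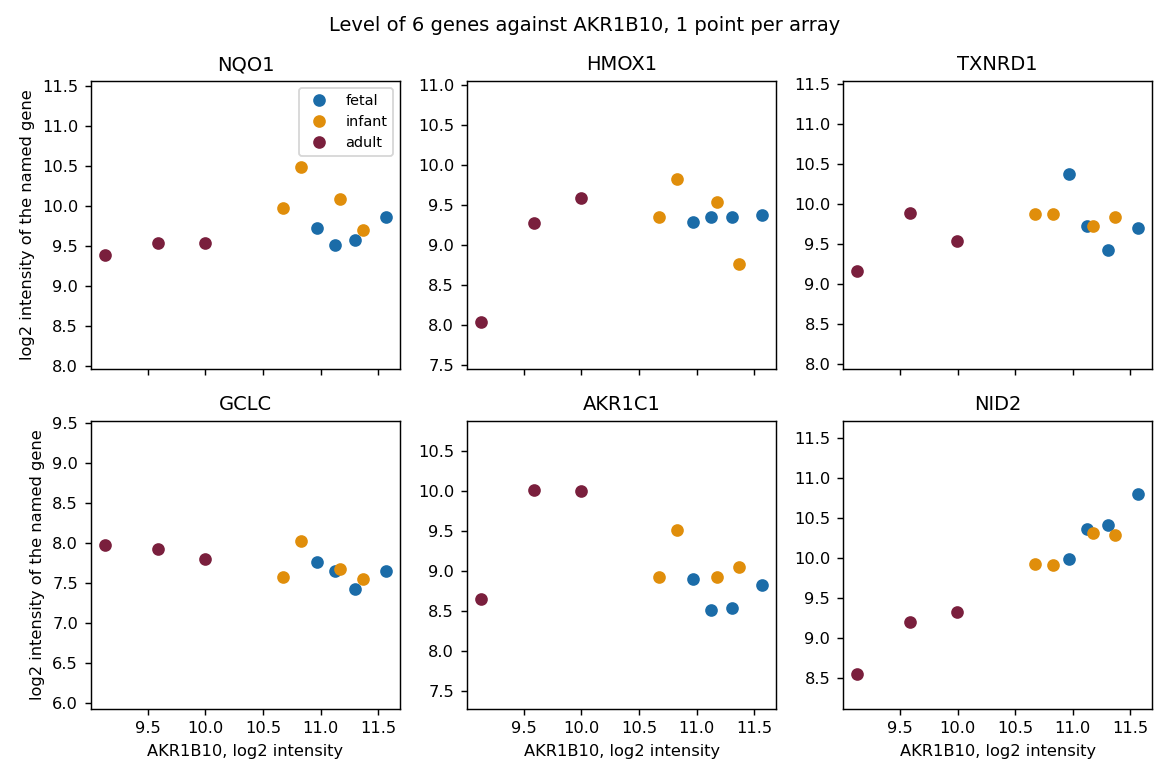
Log2 intensity of NQO1, HMOX1, TXNRD1, GCLC, AKR1C1 and, for comparison, NID2 (brightest probe sets) against that of AKR1B10, 1 point per array, by age group. The adult arrays lie to the left in every panel, and NID2, chosen for its likeness over these arrays, has the highest r, 0.98.

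The genes named here as most like AKR1B10 were not of the pathway lists described below. Those lists held 150 measured genes, of 11959 genes named singly on the array. So few top genes would seldom include a listed one, and the lack of listed genes among them says nothing about NRF2. By Pearson's r over all 11 arrays the closest of 19064 probe sets with a single symbol was NID2, which encodes the basement membrane protein nidogen-2, at 0.98. It was followed by NFIC, a nuclear factor I transcription factor, at 0.95, MAPK10, a stress-activated kinase, at 0.92, TMEM40, a membrane protein, at 0.90, and TUBA1A, an alpha-tubulin, at 0.90. These 5 were the probe sets with r above 0.9. The adult arrays stood apart in AKR1B10, so this r weighs the age difference heavily. By the r of deviations from the age group means, which leaves that difference out, the closest were FETUB at 0.94, KLK5 at 0.93, NID2 at 0.92, ACHE at 0.92 and KYNU at 0.90, over the same 11 arrays. No test was made on genes chosen as the most alike of so many.

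NID2 was the gene common to both rankings. It read 10.36, 10.79, 10.40 and 9.98 in fetal, 9.92, 9.91, 10.30 and 10.29 in infant, and 9.19, 9.32 and 8.54 in adult arrays. As with AKR1B10, all fetal and infant arrays lay above the adult arrays and adult array 3 was lowest. Other probe sets of the like genes did not all follow. The other NFIC probe set had r of 0.49 with AKR1B10 and the other MAPK10 probe set -0.13 over all arrays. For deviations, the other FETUB probe sets had r of 0.46 and 0.37 and those of ACHE 0.07 and 0.63. Those of KYNU had 0.59, 0.08 and 0.54. The probe sets of MAPK10, FETUB and KLK5 named here were dim, with means of 6.95, 7.04 and 7.07.

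The wider pathway was read from 7 lists with 176 entries, of which 150 were measured genes. None of the 150 passed the test between any pair of ages, where 0.131%, 0.0180% and 0% of all probe sets passed in fetal against adult, infant against adult and fetal against infant arrays, so that 0 is near the background. The smallest limma adjusted p was 0.350, for RARRES2, a secreted chemoattractant whose gene responds to retinoids, at -0.49 between fetal and infant arrays. Of 39 measured other NRF2 targets, 25 read higher and 14 lower in fetal than in adult arrays, with a median of 0.07 against 0.00 for all genes. In infant against adult arrays 19 read higher and 20 lower, with a median of 0.00 against -0.02. PRDX1, a peroxiredoxin that removes hydrogen peroxide, had a mean of 12.51 ± 0.33 for fetal, 12.28 ± 0.27 for infant and 11.99 ± 0.21 for adult arrays (SD, n = 4, 4 and 3). Its fetal-minus-adult difference of 0.52 (limma adjusted p = 0.374) was the highest of the 39. TKT, a transketolase of the pentose phosphate pathway, had a fetal-minus-infant difference of 0.54 (limma adjusted p = 0.497) and ABCC2, an exporter of glutathione conjugates, an infant-minus-adult difference of 0.26 (limma adjusted p = 0.805).

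Adult array 3 was the lowest of all arrays for 6 of these 39 targets, near the 10.4% of all probe sets for which it was lowest. The farthest of them was FTL, the ferritin light chain, at 11.36 against 12.89 to 14.01 elsewhere. The summed intensity of the 39 was 30476 to 34803 in fetal, 30100 to 39170 in infant and 33096, 35720 and 21640 in adult arrays 1 to 3. FTL alone set adult array 3 apart in this sum. Without FTL the sum of the other 38 was 20869 to 25071 in fetal, 17387 to 22762 in infant and 20166, 21028 and 19005 in adult arrays 1 to 3, and adult array 3 no longer lay below every other array.

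Among 17 measured regulators of NRF2, 9 read higher and 8 lower both in fetal and in infant arrays against adults. NFE2L2 itself averaged 9.43 ± 0.15 in fetal, 9.59 ± 0.08 in infant and 9.52 ± 0.07 in adult arrays (SD, n = 4, 4 and 3). KEAP1 averaged 7.90 ± 0.06, 7.82 ± 0.25 and 7.71 ± 0.18 at the same ages (SD, same n). The small MAF gene MAFG averaged 8.93, 8.90 and 8.93, and for these 3 genes, chosen after their values were seen, the groups overlapped. The repressor BACH1 read 7.46 to 7.82 in fetal, 7.56 to 7.91 in infant and 7.33 to 7.44 in adult arrays, with all fetal and infant arrays above the adult ones. It differed from adults by 0.18 in fetal and 0.35 in infant arrays (limma adjusted p = 0.711 and 0.624). CUL3 read 9.08 to 9.29 in fetal, 8.91 to 9.20 in infant and 8.83 to 9.02 in adult arrays, with fetal but not infant arrays all above the adult ones. It differed by 0.28 and 0.14 (limma adjusted p = 0.407 and 0.861), and the related factor NFE2L1 differed by -0.29 and -0.39 (limma adjusted p = 0.683 and 0.782). In adult arrays 1 to 3 NFE2L1 read 10.68, 10.81 and 11.41, so its differences lean on adult array 3. Transcript levels do not report the activity of NRF2, which is set mainly by protein stability.

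AKR1B10 reduces retinal, and 18 genes of retinoid metabolism and response were measured. Of these 8 read higher and 10 lower in fetal than in adult arrays, with a median of -0.02. RARRES1, a retinoid-responsive membrane protein, differed by -0.41 (limma adjusted p = 0.560) and ALDH1A3, which oxidises retinal to retinoic acid, by 0.23 (limma adjusted p = 0.645) between fetal and adult arrays. Of 7 other aldo-keto reductases measured, 3 read higher and 4 lower in fetal than in adult arrays, within -0.10 and 0.18. Among these AKR1C4, AKR1D1 and KCNAB3 differed by -0.03, -0.01 and 0.10.

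Of 31 glutathione and peroxide enzymes, 13 read higher and 18 lower in fetal than in adult arrays. The named ones were GGT5, which cleaves glutathione conjugates, at -0.43 (limma adjusted p = 0.483), the glutathione peroxidase GPX7 at -0.35 (limma adjusted p = 0.622) and catalase, CAT, at -0.35 (limma adjusted p = 0.457). Of 20 aldehyde and steroid dehydrogenases, 10 read higher and 10 lower, and ALDH2, ALDH9A1 and DCXR differed by -0.02, 0.09 and -0.19. Of 18 genes of metal and haem stress, 10 read higher and 8 lower. MT2A, a metallothionein, averaged 12.50 ± 0.30 in fetal, 12.15 ± 0.13 in infant and 12.02 ± 0.72 in adult arrays (SD, n = 4, 4 and 3), and TRIB3 and ASNS, genes of the amino acid stress response, read -0.37 and -0.26 in fetal against adult arrays. None of these differences passed the test. In adult arrays 1 to 3 GPX7 read 7.82, 7.92 and 7.15, and MT2A read 12.13, 12.68 and 11.26. The adult means of both thus depend on which adult arrays are kept.

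**Figure D5:**
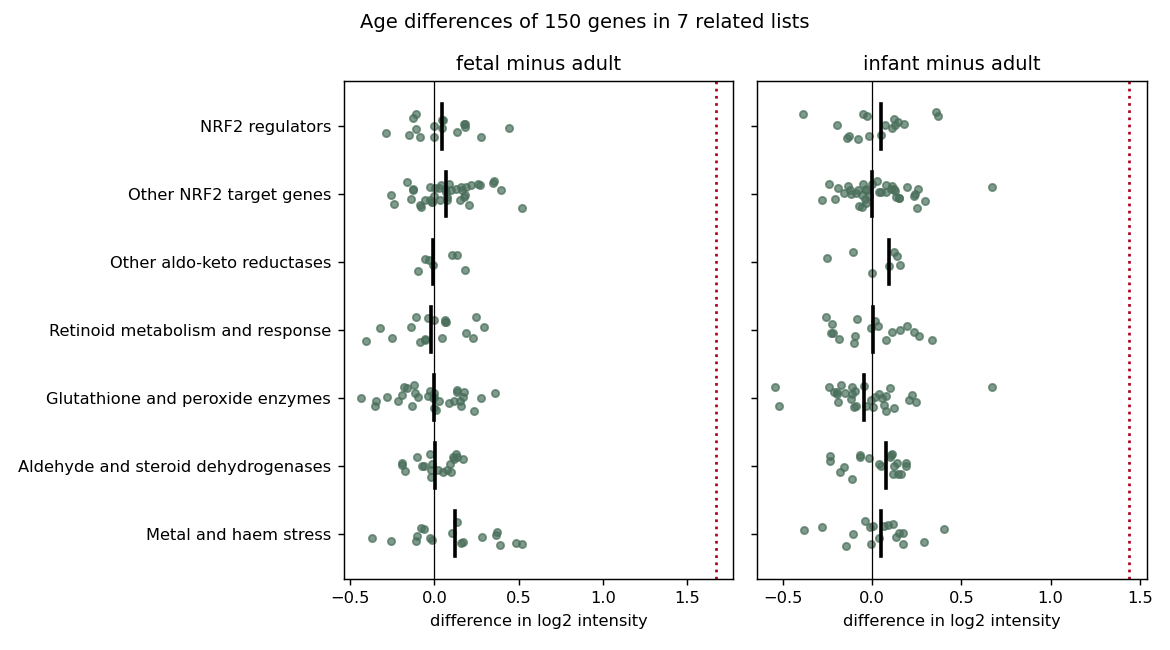
Difference in log2 intensity, fetal minus adult and infant minus adult, of the 150 measured genes in 7 lists, 1 point per gene at its brightest probe set, with the median of each list as a black line and AKR1B10 as a dotted line. The dotted line is the value for which AKR1B10 was chosen. The highest gene lies at 0.52 between fetal and adult and 0.67 between infant and adult arrays.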

How the data were processed

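RNA from 11 cultures was read on 1 array each. Each deposited value is an intensity of 1 probe set on a linear scale. The authors made it with RMA (background correction, normalisation between arrays, summary of probes), as named without a version in the submitters' processing notes. Genes were named from the platform annotation, in which 19065 probe sets have 1 symbol, 1043 several and 2107 none. Log2 of the intensity was taken, and limma 3.58.1 in R 4.3.3 (lmFit, eBayes) fitted 1 mean per titled group over all 11 arrays and 22215 probe sets, without filter or block. Further fits used a mean per stage, or the AKR1B10 level as a numeric term. Tests were two-sided, with Benjamini-Hochberg adjustment over all probe sets and a threshold of 0.05. The number of arrays limits the precision. The fits were tested on simulated data.

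The members and all gene lists were chosen with earlier results of these data known. Each gene was represented by its brightest probe set with 1 symbol. Named genes were all members, the 5 most like AKR1B10 by each of 2 correlations, and from each pathway list the 3 genes of smallest F test p. FTL, NFE2L2, KEAP1, MAFG, KRT18, CLDN4, IGLC1, XIST, RPS4Y1 and DKK1 were chosen after their values were seen. Replicate numbers recur in the titles of different groups. Deviations of same-numbered arrays correlated at 0.145, 0.131 and 0.204 between infant and adult arrays, all over 0.1, which passed the check for pairs on the data alone, but at -0.096 to 0.068 between fetal and adult and 0.0077 to 0.275 between fetal and infant arrays. Alternatives were the replicate block, leaving out arrays, a filter on dim probe sets, 2 groups only, array weights, a variance trend, quantile normalisation and other probe sets. Leaving out adult arrays 1 and 2 together was added after seeing the data.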

Additional observations from a re-analysis of the deposited data

How the results depend on the processing

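Counts of called probe sets moved far more than the members did. Between fetal and adult arrays 29 probe sets were called, against 127 with the replicate block, 16 with only both groups compared, 120 with array weights, 47 with a variance trend and 44 without adult arrays 1 and 2, and leaving out 1 array gave 4 to 153, the most without adult array 3. Between infant and adult arrays the count was 4, against 6 with the replicate block, 2 with only both groups, 10 with array weights, 44 without adult arrays 1 and 2, and 0 to 55 on leaving out 1 array. Between fetal and infant arrays it was 0 (1527 at an unadjusted p under 0.05), against 10 with the replicate block, 1 with the dim filter, 1 with array weights, 5 without the newborn arrays and 0 to 21 on leaving out 1 array. The F test called 8, and 26 with a variance trend. Newborn against gestation day 120 gave 0 (402 unadjusted) and 0 to 2. The slope within age groups gave 0 (1132 unadjusted) throughout, and the slope over fetal and infant arrays gave 1, 0 to 2 on leaving out 1 array, and 11 over all 11 arrays with a common mean. None of the 14 other member probe sets was called with the replicate block. Among all settings, 1 of them was called, AKR1C1 without adult array 3 in both comparisons with adults, and 0 otherwise. AKR1B10 stood 1.45 to 2.11 above adults in fetal and 1.22 to 1.88 in infant arrays over all settings.

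Signs of small member differences turned in some settings, and the cause was not tested. Without adult arrays 1 and 2, fetal minus adult was 0.051 for AKR1C1 and 0.023 for AKR1C3, and infant minus adult was 0.46 for AKR1C1. Other probe sets gave 0.053 for GCLC in fetal minus adult, and 0.12 for GCLC and 0.015 for NQO1 in fetal minus infant. Without the newborn arrays fetal minus infant was -0.032 for AKR1C3. Over all 11 arrays with a common mean the slope was 0.17 for NQO1, 0.28 for HMOX1, 0.029 for GCLM and 0.15 for TXNRD1. On leaving out 1 array, fetal minus adult ran from -0.087 to 0.69 for HMOX1. Infant minus adult ran from -0.026 to 0.089 for GCLM and -0.059 to 0.71 for HMOX1. Fetal minus infant ran from -0.075 to 0.038 for AKR1C2, -0.019 to 0.083 for AKR1C3, -0.14 to 0.021 for GCLC, -0.23 to 0.13 for HMOX1 and -0.21 to 0.11 for TXNRD1. Newborn minus gestation day 120 ran from -0.43 to 0.015 for AKR1B10, -0.13 to 0.23 for AKR1C1, -0.014 to 0.29 for AKR1C2, -0.22 to 0.11 for GCLC, -0.073 to 0.20 for GCLM, -0.21 to 0.13 for NQO1 and -0.30 to 0.65 for TXNRD1. Slopes within age groups ran from -0.11 to 0.79 for AKR1C1, -0.10 to 0.32 for AKR1C2, -0.11 to 0.24 for AKR1C3, -0.22 to 0.053 for GCLM, -0.31 to 1.03 for HMOX1, -0.18 to 0.18 for NQO1 and -0.53 to 0.18 for TXNRD1, and over fetal and infant arrays from -0.18 to 0.17 for AKR1C2.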

Other observations

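DKK1, a secreted inhibitor of WNT signalling and no member of the lists, was the single probe set called on the AKR1B10 level over the 8 fetal and infant arrays, with a slope of 2.45 (limma adjusted p = 0.00313). It read 9.46, 10.05, 9.68 and 8.84 in fetal, 7.84, 8.54, 9.41 and 9.81 in infant, and 8.36, 8.36 and 8.59 in adult arrays. In both young groups the arrays with the highest AKR1B10, fetal array 2 and infant array 4, also read highest for DKK1. The 3 adult arrays do not follow the order, since adult array 3, lowest for AKR1B10, read highest of them for DKK1. Without infant array 1 no probe set was called.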
